A study of Mus musculus with 12 samples.

Results

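Of the 18820 mouse genes that the array's annotation names, 10 of the granulocyte and monocyte program were followed across 12 arrays of EML1 cells, a haematopoietic progenitor line. They are Mpo, Elane, Prtn3, Ctsg, Lyz2, Csf1r, Csf3r, Cebpa, Cebpe and Fcgr3. They were chosen by gene symbol, and each was read by its probe set with the highest mean log2 intensity, although none of the 10 had more than 1. Per the labels, the line came from marrow of male BDF1 mice that had been transduced with the retrovirus LRARalpha403SN, so all 6 groups carry that vector. It encodes a truncated retinoic acid receptor alpha that blocks the normal receptor. The TEL-AML1 groups carry the TEL-AML1 coding sequence in the lentiviral vector pWPI, and the empty vector groups carry pWPI alone. TEL-AML1 joins the transcription factors ETV6 and RUNX1 and is found in childhood B-cell precursor leukaemia. Each vector was profiled untreated and at day 5 and day 7 of IL7 and FLT3L, with 2 arrays in each group. The labels' culture protocol gives, for B-cell differentiation, 10 ng/ml of IL7, 80 ng/ml of FLT3L, a layer of OP9 stroma and a changed medium, whereas the sample titles name only the cytokines. A day comparison may therefore set stroma and medium, as well as cytokines, against maintenance culture. No label states that the replicates came from separate cultures, or whether a vector population was 1 clone, so each p-value reflects array-to-array spread that may be technical.

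Neutrophils and monocytes arise from a shared progenitor in the marrow. C/EBP alpha and PU.1 open the program there, and the azurophil granules are filled first, with myeloperoxidase and the serine proteases. C/EBP epsilon drives the later granules, the receptors for G-CSF and M-CSF carry the growth signals of the granulocyte and the monocyte branch, and lysozyme and Fc receptors come with maturation. RUNX1, the DNA-binding part of TEL-AML1, is a known partner of these factors at myeloid promoters.

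The sequences before the start sites of the azurophil granule genes and of Fcgr3 are given because these genes include the members whose difference between the vectors is described most fully below. Each is the stretch of 250 bases 5′ of a RefSeq start in GRCm38.p6, and a RefSeq promoter of 300 bases, which also holds 50 bases after the start, was listed for 8 of the 10 genes. Capitals mark GAGGAA, the core read by PU.1 and other ETS factors, TTGCNNAA for C/EBP and TGTGGT for RUNX, each on either strand.
Mpo (chr11:87793534-87793783, plus strand): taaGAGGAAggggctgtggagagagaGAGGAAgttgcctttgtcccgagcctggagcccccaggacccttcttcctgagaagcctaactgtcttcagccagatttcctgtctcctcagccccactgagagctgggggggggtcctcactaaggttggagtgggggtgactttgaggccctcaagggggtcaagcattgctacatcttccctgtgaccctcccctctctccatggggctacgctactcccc
Elane (chr10:79886062-79886311, plus strand): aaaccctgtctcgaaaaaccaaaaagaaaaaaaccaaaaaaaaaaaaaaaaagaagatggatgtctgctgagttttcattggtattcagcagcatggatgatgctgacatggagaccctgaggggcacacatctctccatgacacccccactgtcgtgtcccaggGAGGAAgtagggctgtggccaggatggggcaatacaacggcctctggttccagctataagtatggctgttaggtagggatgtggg
Prtn3 (chr10:79879417-79879666, plus strand): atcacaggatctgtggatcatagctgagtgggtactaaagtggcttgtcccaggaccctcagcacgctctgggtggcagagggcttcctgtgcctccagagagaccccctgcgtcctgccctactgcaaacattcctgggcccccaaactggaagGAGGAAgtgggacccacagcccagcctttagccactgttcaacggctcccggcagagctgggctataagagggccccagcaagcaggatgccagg
Ctsg (chr14:56102575-56102824, minus strand): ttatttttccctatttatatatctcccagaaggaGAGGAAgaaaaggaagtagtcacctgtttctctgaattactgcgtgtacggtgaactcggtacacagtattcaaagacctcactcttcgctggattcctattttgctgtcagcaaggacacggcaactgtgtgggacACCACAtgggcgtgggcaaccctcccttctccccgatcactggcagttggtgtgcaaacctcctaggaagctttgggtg
Fcgr3 (chr1:171059404-171059653, minus strand): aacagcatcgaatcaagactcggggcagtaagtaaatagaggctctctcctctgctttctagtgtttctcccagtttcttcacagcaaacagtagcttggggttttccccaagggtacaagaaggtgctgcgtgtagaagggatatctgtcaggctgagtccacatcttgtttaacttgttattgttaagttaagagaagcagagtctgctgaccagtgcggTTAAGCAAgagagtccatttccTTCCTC
All 4 azurophil genes and Csf3r held GAGGAA on the gene's own strand, Mpo in 2 places and the others in 1 each. Fcgr3 held it on the opposite strand, and of the 8 members with a promoter Lyz2 and Cebpa lacked it. On either strand, 28.3% of all 32851 listed promoters held it. Ctsg had the only RUNX core of the 5 sequences, ACCACA as read on its own strand, 79 to 74 bases before the start, and Lyz2 was the other member with one (16.8% of all promoters). Fcgr3 alone had the C/EBP letters (10.8% of all promoters). Cebpa held none of the 3 motifs in this window. These are matches of letters and not measured binding.

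Array medians ran from 68.1 to 72.9. Intensities are on the deposited linear scale, and a gene was tested where its mean over 12 arrays passed 60.1 (the 40th percentile over probe sets). Group values are means ± SD (n = 2 arrays), and differences are on the log2(intensity + 16) scale ± SE, which understates the change of dim genes. The test was limma's, p-values were adjusted by Benjamini-Hochberg across 12337 tested genes, and a gene was called where its adjusted p was under 0.05. Of the 10 genes, 9 passed the floor and Elane did not. The progenitor markers Ptprc, Kit, Cd34, Spn and Cd48 also passed it, whereas Flt3, the receptor of FLT3L, read 45.35 to 55.91 over all arrays and did not. The members lie on chromosomes 1, 4, 7, 10, 11, 14 and 18. In RNA of a whole culture, fewer cells of a type and less RNA per cell cannot be told apart.

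**Figure D1:**
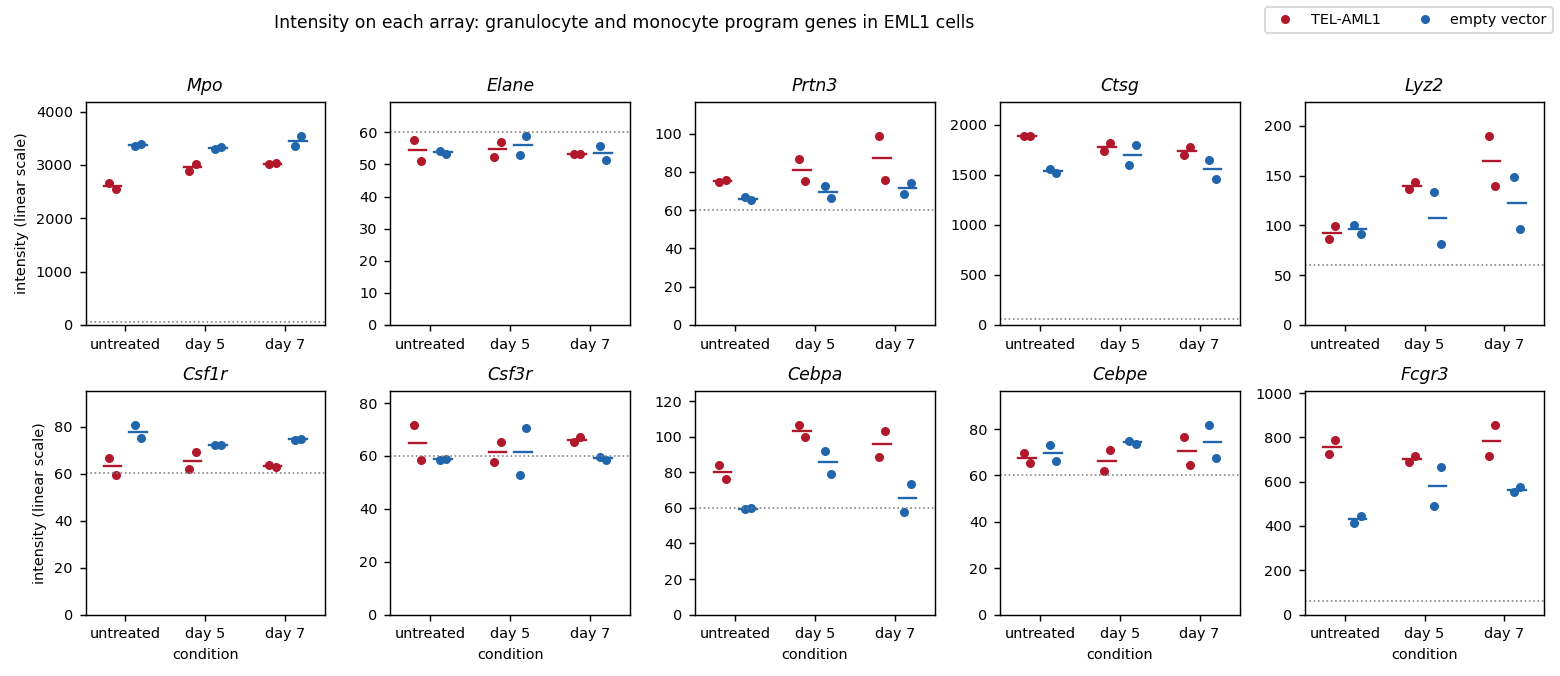
Intensity of the 10 genes on each array (linear scale, a separate axis from 0 for each gene) by condition, with TEL-AML1 in red and the empty vector in blue. Points are arrays, short lines are means of 2 arrays and the dotted line is the floor of 60.1. Mpo lies lower and Fcgr3 higher with TEL-AML1 in every condition, and Elane stays under the floor on all arrays.

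Among the azurophil granule genes, Mpo and Ctsg were bright on all arrays, and in untreated cells the Mpo difference passed the test and the opposite Ctsg difference did not. Mpo, the myeloperoxidase that makes hypochlorous acid, read 2665 and 2551 with TEL-AML1 untreated, 2895 and 3019 at day 5, and 3011 and 3041 at day 7. With the empty vector it read 3359 and 3390 untreated, 3306 and 3339 at day 5, and 3354 and 3549 at day 7. Every TEL-AML1 array was below every empty vector array. In untreated cells Mpo was lower with TEL-AML1 by -0.37 ± 0.07 (0.774-fold, adjusted p = 0.00658). The differences of -0.17 ± 0.07 at day 5 (adjusted p = 0.191) and -0.19 ± 0.07 at day 7 (adjusted p = 0.113) did not pass, with 95% intervals of -0.32 to -0.016 and -0.34 to -0.037. The untreated call ended without either empty vector array or without TEL-AML1 replicate 2 (adjusted p = 0.0571, 0.0614 and 0.0831), and it stayed without TEL-AML1 replicate 1.

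Ctsg, cathepsin G, a chymotrypsin-like protease of the same granules, read 1888 and 1890 on the untreated TEL-AML1 arrays against 1555 and 1513 on the untreated empty vector arrays. The arrays did not overlap, and the difference of 0.30 ± 0.08 had adjusted p = 0.0575. It passed in 7 of 15 alternative fits, among them the replicate number blocked inside the condition (adjusted p = 0.0433), and not in the other 8. At day 5 Ctsg read 1738 and 1814 with TEL-AML1 and 1599 and 1794 with the empty vector, and at day 7 1698 and 1777 against 1645 and 1459. The day 5 values overlapped and the day 7 values did not, and the differences of 0.07 ± 0.08 (adjusted p = 0.714) and 0.16 ± 0.08 (adjusted p = 0.274) did not pass.

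Prtn3 and Elane, the genes of proteinase 3 and neutrophil elastase, are neighbours on chromosome 10. Prtn3 read 65.5 to 98.98 over the 12 arrays, just above the floor. Its lowest TEL-AML1 array read 74.59 and its highest empty vector array 74.34, so the vectors did not overlap when all conditions were put together, but the differences of 0.15 ± 0.11, 0.18 ± 0.11 and 0.23 ± 0.11 in untreated, day 5 and day 7 cells had adjusted p-values of 0.558, 0.386 and 0.215. Elane read 51.14 to 58.99 and was not tested. The array therefore gave no difference for Elane, and whether its probe set reads the transcript at all was not tested.

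The list of other azurophil granule and serglycin genes had 10 tested of 12. In untreated cells 2 were higher with TEL-AML1 and 2 lower, with a median difference of 0.095 against -0.0079 over all genes tested. Ms4a3, a membrane protein gene of granulocyte-monocyte progenitors that passed the floor only through its TEL-AML1 values, read 66.8 ± 6.8 with TEL-AML1 against 51.8 ± 2.1 with the empty vector (0.29 ± 0.08, adjusted p = 0.0464), and Serpinb1a, an inhibitor of these proteases, was higher by 0.30 ± 0.08 (adjusted p = 0.0396). Gusb, the lysosomal beta-glucuronidase, and Cst7, cystatin F, were lower by -0.49 ± 0.09 and -0.42 ± 0.09 (adjusted p = 0.00736 and 0.0158). At day 5 the same 4 genes passed in the same directions, and at day 7 Ms4a3 (0.34 ± 0.08), Serpinb1a (0.33 ± 0.08) and Gusb (-0.55 ± 0.09) did (adjusted p = 0.0196, 0.0226 and 0.00373). The medians were 0.15 and 0.24 at day 5 and day 7. Of all genes tested, 2.74%, 3.04% and 5.28% were higher with TEL-AML1 in untreated, day 5 and day 7 cells, and 6.16%, 4.28% and 6% lower. Over untreated cells the list had 0 higher and 1 lower at day 5 and 1 higher and 2 lower at day 7 with TEL-AML1, and 0 higher and 3 lower at day 5 and 0 higher and 4 lower at day 7 with the empty vector. Its medians were -0.12 and -0.040 with TEL-AML1 and -0.17 and -0.32 with the empty vector, against 0.0097, -0.0013, -0.0078 and 0.0082 over all genes. In the same order, 1.17%, 4.77%, 8.45% and 6.29% of all genes were higher and 0.438%, 3.08%, 7.16% and 9.19% lower.

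The largest difference between the vectors among the 10 genes was that of Fcgr3 in untreated cells. Fcgr3 encodes the low-affinity IgG receptor FcγRIII of macrophages, neutrophils, NK cells and mast cells. With TEL-AML1 it read 727.2 and 788.6 untreated, 687.6 and 716.8 at day 5, and 714.8 and 854.9 at day 7. With the empty vector it read 415.3 and 445.4 untreated, 491.0 and 667.8 at day 5, and 551.7 and 576.9 at day 7. Every TEL-AML1 array lay above every empty vector array, and within the empty vector the untreated arrays were the lowest. The untreated difference was 0.79 ± 0.13 (1.73-fold, adjusted p = 0.00387), and it passed when any 1 of those 4 arrays was left out (adjusted p at most 0.0479). The day 5 difference was 0.29 ± 0.13 (adjusted p = 0.256, 95% interval -0.0087 to 0.58) and at day 7 0.46 ± 0.13 (adjusted p = 0.0513). The day 7 difference passed in 5 of 15 alternative fits, among them the replicate block (adjusted p = 0.0159). It did not pass with only the day 7 groups fitted (adjusted p = 0.116).

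Fcer1g, the signalling chain that FcγRIII needs at the surface, averaged 2046 ± 122 in untreated TEL-AML1 cells and 1724 ± 44 in untreated empty vector cells (0.24, adjusted p = 0.0663). Fcgr2b, the inhibitory IgG receptor and a close relative of Fcgr3, went the other way, averaging 400.7 ± 22.9 with TEL-AML1 against 579.9 ± 5.3 with the empty vector in untreated cells (-0.52 ± 0.10, adjusted p = 0.00658). Its day 5 averages were 351.5 ± 50.1 with TEL-AML1 and 455.6 ± 16.4 with the empty vector (-0.37 ± 0.10, adjusted p = 0.0443). The Fcgr3 probe set's response to Fcgr2b transcript was not tested. Among markers of mast cells, which also carry FcγRIII, 4 of 9 tested genes were higher and 0 lower with TEL-AML1 in untreated cells. Of all genes tested, 2.74%, 3.04% and 5.28% were higher with TEL-AML1 in untreated, day 5 and day 7 cells. The summed intensity of the 10 listed mast cell and basophil genes was 8827 and 8914 against 6484 and 6755. At day 5, 3 were higher, with sums of 11722 and 8101 against 7112 and 6569, and at day 7, 5 were higher, with sums of 13123 and 10226 against 8151 and 6230. No mast cell marker was lower at either day, and Fcer1a alone of the 10 stayed under the floor. Their part in the Fcgr3 difference was not tested.

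The genes of the receptors for M-CSF and G-CSF lay near the floor. Csf1r read 66.88 and 59.37 with TEL-AML1 and 80.63 and 75.06 with the empty vector in untreated cells, 61.94 and 69.08 against 72.21 and 72.21 at day 5, and 63.65 and 62.75 against 74.53 and 74.71 at day 7. Every TEL-AML1 array was under every empty vector array. The differences were -0.25 ± 0.08 (adjusted p = 0.0847), -0.12 ± 0.08 (adjusted p = 0.444) and -0.19 ± 0.08 (adjusted p = 0.15). The untreated one passed in 4 of 14 alternative fits, among them the replicate block (adjusted p = 0.0484). Csf3r exceeded the floor on 5 of 12 arrays, between 52.66 and 71.57, and its vector differences of 0.11, 0.0074 and 0.13 (SE 0.11 each) had adjusted p-values of 0.73, 0.981 and 0.553.

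Of the other myeloid receptor, Fc receptor chain and Src kinase genes, 11 of 16 were tested. With TEL-AML1, 2 were higher and 1 lower in untreated cells, 1 and 1 at day 5, and 3 and 0 at day 7, with medians of 0.010, 0.14 and 0.13. The shares of all genes were 2.74%, 3.04% and 5.28% higher and 6.16%, 4.28% and 6% lower. Itgb2, the beta chain of the leukocyte integrins, was higher in each condition (0.83 ± 0.07, 0.65 ± 0.07 and 0.74 ± 0.07). Csf2rb, the chain shared by the receptors for IL3, IL5 and GM-CSF, was higher in untreated cells (0.35 ± 0.09, adjusted p = 0.0456) and at day 7 (0.81 ± 0.09, adjusted p = 0.000448). Its near-identical paralog Csf2rb2 was the other called gene at day 7, and cross-hybridisation between them was not tested.

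Cebpa was the member called higher with TEL-AML1 at day 7. It encodes C/EBP alpha, without which granulocyte-monocyte progenitors do not form. In TEL-AML1 cells it read 83.97 and 76.42 untreated, 106.5 and 99.76 at day 5, and 88.72 and 103.3 at day 7. In empty vector cells it read 59.16 and 59.76 untreated, 92.32 and 79.28 at day 5, and 57.48 and 73.53 at day 7. Within each condition both TEL-AML1 arrays lay above both empty vector arrays. The day 7 difference was 0.46 ± 0.11 (1.38-fold, adjusted p = 0.0231). It was lost without empty vector day 7 replicate 1 (adjusted p = 0.123), without TEL-AML1 day 7 replicate 2 (adjusted p = 0.168) and when the day 7 groups alone were fitted (adjusted p = 0.156). The untreated difference of 0.35 ± 0.11 (adjusted p = 0.089) passed in 3 of 14 alternative fits, among them the replicate block (adjusted p = 0.0152). The day 5 difference was 0.23 ± 0.11 (adjusted p = 0.275), and 0.14 without empty vector day 5 replicate 2 (adjusted p = 0.671). With a covariate for the stroma markers' mean on each array, the untreated and day 5 differences passed too (0.34 and 0.35, adjusted p = 0.024 and 0.0359).

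Cebpe, whose product drives the later granules, read 61.77 to 81.61 over the arrays, and its vector differences lay between -0.13 ± 0.10 and -0.036 ± 0.10 with adjusted p-values of 0.51 or more. Among 15 other myeloid transcription factor genes, all of them tested, TEL-AML1 cells had 1 higher before treatment, 1 at day 5 and 2 at day 7, and 0 lower. Gfi1, a repressor needed by neutrophil progenitors, was higher in untreated cells and at day 7 (0.37 ± 0.09 and 0.42 ± 0.09, adjusted p = 0.031 and 0.0153). Spi1, the gene of PU.1, averaged 646.5 ± 38.3 with TEL-AML1 against 506.8 ± 17.4 with the empty vector at day 5 (0.34 ± 0.09, adjusted p = 0.0438). The other called gene at day 7 was Zeb2, a zinc-finger repressor (0.53 ± 0.10, adjusted p = 0.00864). The list's medians were 0.063, -0.060 and 0.074. Among all genes tested, 2.74%, 3.04% and 5.28% were higher and 6.16%, 4.28% and 6% lower.

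**Figure D2:**
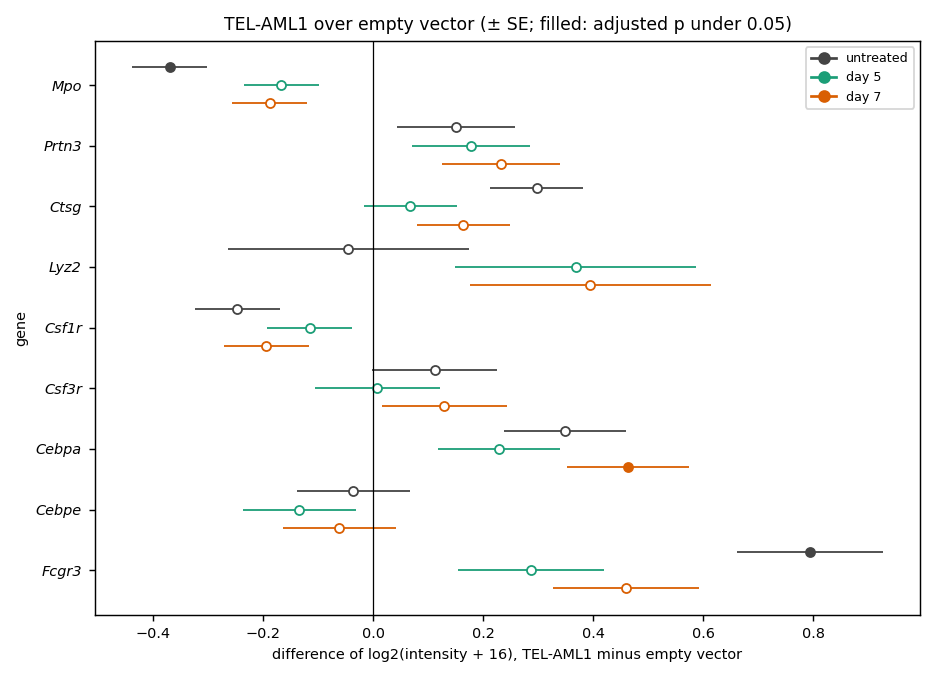
Difference between TEL-AML1 and empty vector cells for the 9 tested genes (x axis, log2(intensity + 16) scale; bars are ± 1 SE; filled points have adjusted p under 0.05). Filled are Mpo and Fcgr3 in untreated cells and Cebpa at day 7.

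Counted together, 2 of the 9 tested members were called with TEL-AML1 against the empty vector before treatment, 1 higher and 1 lower, beside 8.9% of all genes tested (2.74% higher and 6.16% lower). At day 5, 0 of 9 were called by limma (1 at an unadjusted p under 0.05, against 20.8% of all genes), with 7.32% of all genes called (3.04% higher and 4.28% lower). At day 7, 1 of 9 was called, and it was higher, against 11.3% of all genes (5.28% higher and 6% lower). At an unadjusted p under 0.05, 5 members passed in untreated cells and 4 at day 7, against 19.1% and 24.5% of all genes. When replicate numbers were blocked in each condition, the members' counts were 5, 0 and 2 for untreated, day 5 and day 7 cells. Over all genes the block gave 1491 calls in untreated cells, against 1098 without it. It gave 1838 at day 5, against 903, and 2215 at day 7, against 1392. The members' median differences were 0.11, 0.068 and 0.16, and those of all genes -0.0079, -0.0014 and -0.026.

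Lyz2, the lysozyme gene of macrophages and neutrophils, had the largest day differences among the members in TEL-AML1 cells and, in the fit, the largest SE. In TEL-AML1 cells it read 85.95 and 99.63 untreated, 136.4 and 143.4 at day 5, and 190.1 and 139.5 at day 7. In empty vector cells it read 100.7 and 91.68 untreated, 133.6 and 81.47 at day 5, and 148.8 and 96.54 at day 7. All 4 treated TEL-AML1 arrays were above both untreated ones, whereas the treated empty vector arrays overlapped the untreated ones at day 5 and at day 7. With TEL-AML1 the day 7 difference from untreated was 0.72 ± 0.22 (1.65-fold, adjusted p = 0.0751, 95% interval 0.24 to 1.21) and the day 5 difference 0.52 ± 0.22 (adjusted p = 0.3). With the empty vector they were 0.28 ± 0.22 (adjusted p = 0.419) at day 7 and 0.11 ± 0.22 (adjusted p = 0.811) at day 5. The difference between the vectors' responses was 0.44 ± 0.31 at day 7 (adjusted p = 0.706), so no call of a vector-dependent response was made. Lyz1, the closely related lysozyme gene of Paneth cells, read 54.7 to 79.19 and differed from untreated by -0.011 to 0.19 with adjusted p-values of 0.314 or more. Cross-hybridisation between the Lyz1 and Lyz2 probe sets was not tested.

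Cebpa was the member called between treated and untreated cells. With the empty vector it averaged 85.8 ± 9.2 at day 5 against 59.5 ± 0.4 untreated (0.43 ± 0.11, 1.35-fold, adjusted p = 0.0279). Both of these untreated arrays read under the floor. The call ended without either untreated array or without day 5 replicate 1 (adjusted p = 0.124, 0.147 and 0.117) and with arrays centred on their medians (adjusted p = 0.0576). At day 7 the empty vector difference was 0.10 ± 0.11 (adjusted p = 0.562). With TEL-AML1 Cebpa differed from untreated by 0.31 ± 0.11 at day 5 (adjusted p = 0.234) and by 0.22 ± 0.11 at day 7 (adjusted p = 0.288). Within the treated groups Cebpa ran with the OP9 stroma markers, of which 20 of 21 had a probe set and 16 passed the floor. In each of the 4 treated groups the array with the larger summed stroma intensity had the larger Cebpa value. The sums were 7477 and 3647 with TEL-AML1 at day 5, 2295 and 4243 at day 7, 8732 and 7028 with the empty vector at day 5, and 2443 and 5663 at day 7. Untreated arrays had sums of 2422 and 2264 with TEL-AML1 and 2027 and 1982 with the empty vector. Untreated Cebpa followed the sums with TEL-AML1 (83.97 and 76.42) but not with the empty vector (59.16 and 59.76). At day 5 and day 7 each TEL-AML1 array had a smaller sum but more Cebpa than the same-numbered empty vector array. Tagln, Postn, Dcn and Lum had means under the floor, although Postn exceeded it on both empty vector day 5 arrays (83.1 and 72.56) and on single arrays of other treated groups, and Tagln on 1 array (60.28). The part of stroma RNA in the Cebpa day differences was not tested. Lyz2 ran against these sums at day 7, where replicate 1 of either vector had more Lyz2 and less stroma signal. At day 5 it ran against them with TEL-AML1 (136.4 and 143.4) but with them in the empty vector (133.6 and 81.47).

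**Figure D3:**
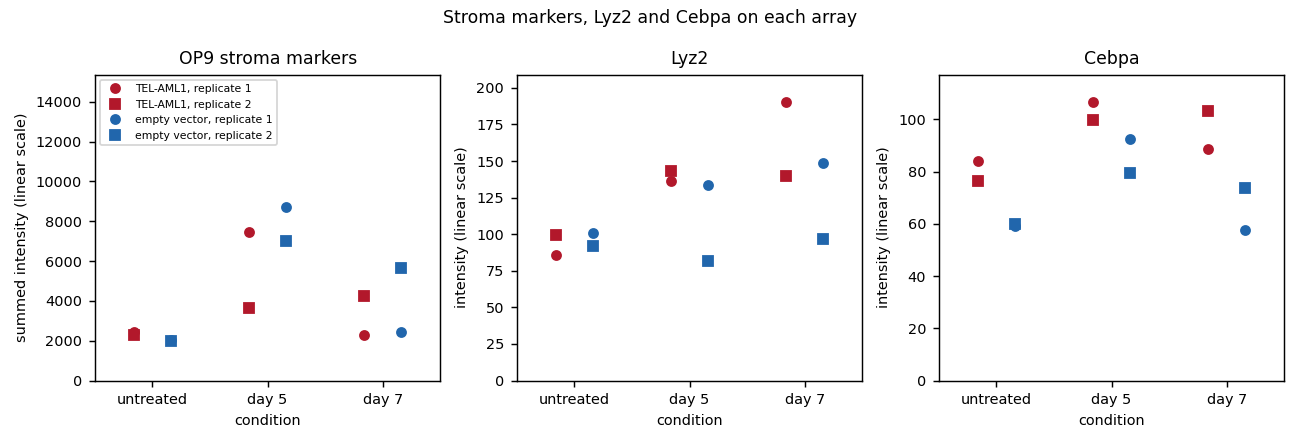
Summed intensity of the 20 OP9 stroma markers with a probe set and intensity of Lyz2 and Cebpa on each array (linear scale, axes from 0), by condition, with TEL-AML1 in red and the empty vector in blue, circles for replicate 1 and squares for replicate 2. At day 5 and day 7 the array with more stroma signal in a group also has more Cebpa, and at day 7 less Lyz2. At day 5 that array has less Lyz2 with TEL-AML1 and more with the empty vector.

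Mpo and Fcgr3, called between the vectors before treatment, were not called between days in either vector. Mpo differed from untreated in TEL-AML1 cells by 0.18 ± 0.07 at day 5 (adjusted p = 0.253) and 0.21 ± 0.07 at day 7 (adjusted p = 0.0859), and in empty vector cells by -0.022 ± 0.07 and 0.032 ± 0.07 (adjusted p = 0.879 and 0.791). Fcgr3 differed from untreated in TEL-AML1 cells by -0.11 ± 0.13 at day 5 and 0.045 ± 0.13 at day 7 (adjusted p = 0.804 and 0.902), and in empty vector cells by 0.40 ± 0.13 and 0.38 ± 0.13 (adjusted p = 0.0677 and 0.0796). The empty vector day 5 value of Fcgr3 depended on the array, at 0.62 without day 5 replicate 1 (adjusted p = 0.0156) and 0.18 without day 5 replicate 2 (adjusted p = 0.421). Tested directly, the response of TEL-AML1 cells minus that of empty vector cells was -0.51 ± 0.19 for Fcgr3 at day 5 (adjusted p = 0.609) and -0.33 ± 0.19 at day 7 (adjusted p = 0.636). For Mpo it was 0.20 ± 0.10 and 0.18 ± 0.10 (adjusted p = 0.65 and 0.617). Comparisons of day 5 and of day 7 with untreated cells share the untreated arrays of their vector.

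**Figure D4:**
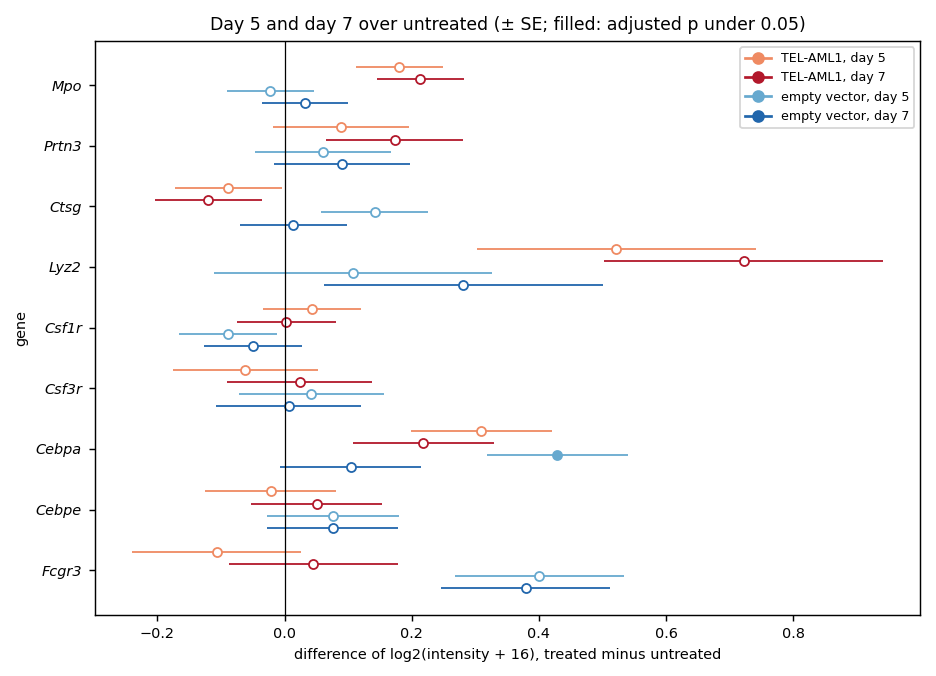
Difference of day 5 and day 7 from untreated cells for the 9 tested genes in each vector (x axis, log2(intensity + 16) scale; bars are ± 1 SE; filled points have adjusted p under 0.05). The filled point is Cebpa in empty vector cells at day 5, and the largest difference is that of Lyz2 in TEL-AML1 cells at day 7.

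Ctsg, Prtn3, Csf1r, Csf3r and Cebpe differed from untreated by at most 0.17 in size at both days in both vectors, with adjusted p-values of 0.305 or more. In all, 0 of 9 tested members were called with TEL-AML1 at day 5 (3 at an unadjusted p under 0.05, against 14.8% of all genes) and 0 at day 7 (2, against 22.6%), with 1.6% of all genes called at day 5 (1.17% higher and 0.438% lower) and 7.85% at day 7 (4.77% higher and 3.08% lower). With the empty vector 1 was called at day 5, higher, against 15.6% of all genes (8.45% higher and 7.16% lower). At an unadjusted p under 0.05, 2 members passed there, against 29.6% of all genes. At day 7 the empty vector had 0 called (1 at an unadjusted p under 0.05, against 31.4% of all genes), with 15.5% of all genes called (6.29% higher and 9.19% lower). Between day 7 and day 5 limma called 0 members in either vector (0 with TEL-AML1 and 1, Cebpa, with the empty vector at an unadjusted p under 0.05), and it called 0% of all genes in both (8% and 6.45% at an unadjusted p under 0.05). For the difference between the vectors' responses limma called 0 members at day 5 and at day 7 (1, Fcgr3, and 0 at an unadjusted p under 0.05, against 7.69% and 9.05% of all genes), with 0.0324% of all genes called at day 5 (0.0162% in each direction) and 0.0811% at day 7 (0.0567% higher and 0.0243% lower).

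Genes of later granules and mature neutrophils were mostly dim. Of 20 listed genes 9 passed the floor, and Ltf, Ngp, Mmp8, Mmp9, S100a8 and S100a9, which mark the secondary and tertiary granules and the mature cell's cytosol, were among the 10 with a probe set that did not. Pglyrp1, a bactericidal granule protein, was higher in treated than in untreated cells of both vectors. It averaged 447.5 ± 28.1 at day 5 against 277.6 ± 4.8 untreated with TEL-AML1 (0.66 ± 0.14, adjusted p = 0.049) and 484.7 ± 7.7 at day 5 against 279.4 ± 28.7 untreated with the empty vector (0.76 ± 0.14, adjusted p = 0.00861), and its day 7 differences were 0.65 ± 0.14 and 1.08 ± 0.14 (adjusted p = 0.0203 and 0.00166). Itgam, the alpha chain of the integrin Mac-1, was higher with TEL-AML1 than with the empty vector both at day 5 (117.2 ± 14.2 against 83.05 ± 5.05, 0.42 ± 0.10, adjusted p = 0.0244) and at day 7 (141.3 ± 2.2 against 86.53 ± 0.96, 0.62 ± 0.10, adjusted p = 0.00259). Between the vectors this list had 0 called genes in untreated cells and 1, Itgam, at each day. Of all genes, 8.9%, 7.32% and 11.3% were called between the vectors in untreated, day 5 and day 7 cells (2.74%, 3.04% and 5.28% higher). Over untreated the list had 1 higher at day 5 and 2 at day 7 with TEL-AML1, and 0 lower. With the empty vector it had 3 higher at day 5 and 1 at day 7, and 0 lower. Over all genes 1.17% and 4.77% were higher with TEL-AML1 at day 5 and day 7, and 8.45% and 6.29% with the empty vector. In the same order, 0.438%, 3.08%, 7.16% and 9.19% were lower.

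Monocyte and macrophage genes, of which 12 of 23 were tested, held the called vector-dependent responses of these lists. Ms4a6c, a membrane protein gene of monocytes, averaged 77.2 ± 2.8 untreated, 310.7 ± 54.8 at day 5 and 530.5 ± 171.3 at day 7 with TEL-AML1, and 49.0 ± 0.3, 50.9 ± 0.5 and 57.8 ± 12.9 with the empty vector. Ccr2, the receptor that draws monocytes to tissue, averaged 210.1 ± 10.7, 356.6 ± 4.0 and 512.0 ± 78.0 with TEL-AML1, and 144.3 ± 6.9, 937.9 ± 53.2 and 733.2 ± 9.8 with the empty vector. The response of TEL-AML1 cells minus that of empty vector cells was -1.85 ± 0.14 for Ccr2 at day 5 (adjusted p = 0.00121), -1.01 ± 0.14 for Ccr2 at day 7 (adjusted p = 0.0334) and 2.35 ± 0.27 for Ms4a6c at day 7 (adjusted p = 0.0127). The empty vector means of Ms4a6c all lay under the floor, which it passed only through TEL-AML1 cells. Between the vectors 3 genes of the list were higher and 1 lower in untreated cells, 3 and 2 at day 5, and 2 and 2 at day 7, with medians of 0.039, 0.034 and -0.053. The shares of all genes were 2.74%, 3.04% and 5.28% higher and 6.16%, 4.28% and 6% lower. Over untreated cells the list had 2 higher and 1 lower at each day with TEL-AML1. With the empty vector it had 4 and 1 at day 5 and 2 and 1 at day 7. Its medians were 0.081 and 0.10 with TEL-AML1 and 0.14 and 0.17 with the empty vector. Of all genes, 1.17%, 4.77%, 8.45% and 6.29% were higher in these 4 comparisons and 0.438%, 3.08%, 7.16% and 9.19% lower. Cd68, a lysosomal protein of macrophages, went against these medians and was lower in treated cells in all 4. Its differences were -0.40 and -0.60 for TEL-AML1 at day 5 and day 7 and -0.45 and -0.46 for the empty vector. Cd14, Mpeg1, Cx3cr1, Cybb and Mrc1, all known from mature monocytes or macrophages, had means under the floor.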

How the data were processed

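RNA of EML1 cells was measured on 12 Affymetrix arrays, 2 for each of 6 groups that were taken, with the replicate numbers, from the sample titles. The deposited table holds linear intensity values of 35556 probe sets, between 15.2 and 7932.3. The authors' background correction, probe summary and normalization are not given in the sources used here. Values were used as deposited. An array has no read depth, and 2 arrays a group limit the precision. The platform annotation listed 1 gene for 21218 probe sets, several for 1881 and none for 12457, and names were taken from the first kind. Of the 18820 named genes, each read by its brightest probe set, 18790 were found by Entrez number in RefSeq's GRCm38.p6 genes. Promoter sequences and coordinates are RefSeq's, of that build.

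Genes with a mean intensity over the 40th percentile (60.1) entered 1 model of 6 group means on log2(intensity + 16), fitted with limma 3.58.1 in R 4.3.3 (lmFit and eBayes, 6 residual and 4.22 prior degrees of freedom), with 11 comparisons and Benjamini-Hochberg adjustment within each. The procedure was tested on simulated data. The labels do not tie replicate numbers to a batch, but deviations of same-numbered TEL-AML1 and empty vector arrays correlated at 0.433 (untreated), 0.543 (day 5) and 0.376 (day 7), so the number was taken to pair the vectors within a condition. Across conditions these correlations lay between -0.241 and 0.156. The 10 genes, 11 further gene lists and the tests were chosen with earlier results of these data known. All 10 genes were named, and from each list up to 4 called genes with the smallest adjusted p in a comparison, a part of which is given, and Lyz1, Fcer1g and Spi1 in any case. Flt3 and other genes under the floor were named after their values were seen. Genes of like pattern were to be named for members whose group means span over 1 log2 unit, and no member did. Alternatives were quantile normalization, median centring, filters, pseudocounts, averaged probe sets, a trended and robust variance, only the groups compared, replicate blocks, a stroma covariate and leaving out each array.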

Additional observations from a re-analysis of the deposited data

How the results depend on the processing

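The 10 genes were read on 2 arrays a group, and several lie close to the floor, so small differences among dim genes are limited by signal over background. Of the member differences recomputed singly, none reversed its sign. They are those of Mpo, Ctsg, Csf1r, Cebpa and Fcgr3 between the vectors untreated, Cebpa at day 5, and Mpo, Cebpa and Fcgr3 at day 7, and, over untreated, Mpo and Lyz2 with TEL-AML1 at day 7 and Cebpa at day 5 and Fcgr3 at both days with the empty vector. These differences were followed because each passed in the main fit or in an alternative. A changed filter, averaged probe sets, another variance, fewer groups or a replicate block left their values unchanged and could not reverse a sign. The other member differences were not followed singly. Some of those were larger, such as Lyz2 with TEL-AML1 at day 5 over untreated (0.52) and the Fcgr3 response difference at day 5 (-0.51). The causes of the shifts below were not tested unless fewer arrays or genes entered the fit. Fcgr3 in untreated cells stayed called in all 15 alternatives.

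Between the vectors in untreated cells, 2 of the 9 tested members were called. The count was 4 with quantile normalization and 5 with only the groups compared. It was 5 with the replicate block within each condition and 4 with the stroma marker mean as a covariate. Over all genes these fits gave 1071, 2374, 1491 and 1244 calls, against 1098. At day 5 that covariate gave 1 call (Cebpa) in place of 0, and 1220 over all genes in place of 903. At day 7 the count of 1 became 2 with arrays centred on their medians and 2 with a pseudocount of 64. It became 3 with a trended and robust variance, 0 with only the groups compared and 2 with the replicate block. Over all genes the calls in that order were 1288, 1478, 1425, 371 and 2215, against 1392. For TEL-AML1 at day 7 over untreated the count of 0 became 1, Mpo, with a pseudocount of 64 or the trended and robust variance. It became 1, Lyz2, with only the groups compared or the replicate block across all arrays. Over all genes the calls in that order were 1087, 1013, 1648 and 969, against 968. With the empty vector the count of 1 at day 5 became 0 with centred arrays, 0 with the filter at the 60th percentile, where Cebpa was not tested, and 2 with the replicate block across all arrays, which also gave 1 at day 7 in place of 0 (Fcgr3). That block rests on a shared number only. Over all genes these day 5 fits gave 1826, 1548 and 1868 calls, against 1926. At day 7 the block gave 1829, against 1910.

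Over all genes, fitting only the groups compared gave 2374, 327 and 371 calls between the vectors for untreated, day 5 and day 7 cells, against 1098, 903 and 1392. It gave 1648 for TEL-AML1 at day 7 over untreated (968 with all groups), 290 for the empty vector at day 7 over untreated (1910), and 16 and 3 for the vectors' difference in response at day 5 and day 7 (4 and 10). The replicate block gave 1838 and 2215 calls between the vectors at day 5 and day 7, and 9 and 34 for the difference in response. It moved no other count of calls by more than 1.5 times. The stroma covariate gave 10 and 18 for the difference in response, no filter gave 5 at day 7, and a pseudocount of 64 gave 1 for TEL-AML1 at day 7 over day 5.

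Leaving out each array in turn gave 1 to 2 of the 10 genes between the vectors in untreated cells, 0 to 1 at day 7, and 0 to 1 for the empty vector at day 5 over untreated. Over all genes it gave 477 to 533, 453 to 802 and 757 to 1730 between the vectors for untreated, day 5 and day 7 cells. Over untreated it gave 80 to 294 and 200 to 512 with TEL-AML1 at day 5 and day 7, and 202 to 1487 and 298 to 2799 with the empty vector. For day 7 over day 5 it gave 0 to 17 with TEL-AML1 and 0 to 71 with the empty vector, and for the difference in response 1 to 2 at day 5 and 0 to 75 at day 7. A lone array left in a group is assumed to vary like the other groups.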

Other observations

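Marker lists of other lineages were read in the same cells. Of 9 tested erythroid markers, 1 was higher and 1 lower with TEL-AML1 than with the empty vector in untreated cells, 3 and 1 at day 5, and 4 and 1 at day 7, with median differences of 0.11, 0.48 and 0.44 against -0.0079, -0.0014 and -0.026 over all genes. Of 7 tested B lineage markers, 0 were called in untreated cells and 1 was lower at each day, and of 3 tested dendritic cell markers 1 was lower in each condition. Of 5 tested progenitor markers 1 was higher in untreated cells, 0 were called at day 5 and 1 was higher at day 7. Among all genes tested, 2.74%, 3.04% and 5.28% were higher with TEL-AML1 in untreated, day 5 and day 7 cells, and 6.16%, 4.28% and 6% lower. Of 16 tested OP9 stroma markers 1 was called higher and 0 lower with TEL-AML1 in each condition, although at day 5 and at day 7 only 1 difference was positive, and the medians were 0.048 untreated, -0.43 at day 5 and -0.27 at day 7. Over untreated cells 0 of the 16 were called with TEL-AML1 at either day, but 15 differences were positive at day 5 (median 0.99) and 14 at day 7 (median 0.23). Empty vector cells had 13 called higher at day 5 (16 positive, median 1.32) and 1 at day 7 (15 positive, median 0.49). Of all genes, 8.45% and 6.29% were higher there. In TEL-AML1 cells, 1.6% and 7.85% of all genes were called at day 5 and day 7 (1.17% and 4.77% higher).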
